A study of Mus musculus with 8 samples.

Results

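A set of 10 genes of the liver sinusoid was followed in sorted bile duct cells of the mouse, the scavenger and endocytic receptors Stab1, Stab2, Lyve1, Mrc1, Clec4g, Clec1b, Cd209b, Fcgr2b, Cd36 and Gpr182. They were chosen by name as receptors known from sinusoidal endothelium, with earlier results of these data known, and are 10 of the 46603 gene rows with counts. They are thus not a neutral set, and shares over all genes are given beside their counts as description only. RNA was sequenced from 8 libraries, an EGFP+ and an EGFP- library from each of 4 mice named JV602, JV621, JV624 and JV6314. All mice were heterozygous for R26rtTA and for H2B-EGFP, took doxycycline from birth to postnatal day 5, and were 8 weeks old when their liver cells were sorted. EGFP+EpCAM+CD45- cells, which kept the nuclear label, are called LLRCs, and EGFP-EpCAM+CD45- cells are called non-LRC cells. The groups thus share genotype, doxycycline and the sort on EpCAM and CD45, and differ in EGFP. The transactivator is driven from the ubiquitously active Rosa26 locus, so the label is not restricted to biliary cells, and the study notes, from earlier work, that blood-forming cells of the bone marrow carry EGFP without doxycycline.

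Sinusoidal endothelial cells line the capillaries of the liver lobule and are among the most active endocytic cells of the body. They clear hyaluronan, denatured collagen, modified lipoproteins, mannose-ended glycoproteins and small immune complexes from portal blood through receptors that shuttle between the cell surface and endosomes. The 10 genes encode such receptors or surface proteins typical of the same cells, but several are also used elsewhere, for example Mrc1, Stab1, Cd36 and Fcgr2b in macrophages, Lyve1 in lymphatic vessels, Fcgr2b in B cells and Cd36 and Clec1b in platelets. Cholangiocytes, the cells that the sort selects, are epithelial and are not known for these receptors.

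Each LLRC library held 7860021 to 9851819 counts in all and each non-LRC library 4670132 to 8056103, so that the LLRC library was the deeper of each mouse. Levels are given as CPM, counts relative to the library size, which TMM corrected for library composition. A count of 3, taken as the floor of detection, was worth between 0.291 and 0.626 CPM. Intervals and floors cover counting error only, and in bulk RNA fewer cells of a type and less RNA per cell cannot be told apart. In edgeR's quasi-likelihood test over 13605 genes, the median log2 fold change (log2FC, LLRC over non-LRC) was -0.01. Below, SE is the standard error of a log2FC, and 4 values in a row belong to JV602, JV621, JV624 and JV6314 in this order.

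All 10 receptors had a lower mean in LLRCs than in non-LRC cells, and for 7 of them (Stab1, Stab2, Mrc1, Clec4g, Fcgr2b, Cd36 and Gpr182) all LLRC libraries lay below all non-LRC libraries, as 1.91% of all genes tested did. The same 7 were lower in the LLRC library of all 4 mice, against 5.53% of all genes tested. Their raw counts were also lower in every mouse, although the LLRC libraries were deeper. Lyve1, Clec1b and Cd209b were read at few counts and overlapped between groups. The filter for expressed genes kept 8 of the 10, leaving out Lyve1 and Cd209b. A gene could pass it through the non-LRC libraries alone, so the genes that passed are not a neutral sample of the 10.

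None of the 8 had an adjusted p below 0.05 in edgeR's quasi-likelihood test with Benjamini-Hochberg adjustment, nor did any other gene lower in LLRCs, a background of 0.0%. At an unadjusted p below 0.05 the same test gave 7 of the 8, all lower in LLRCs, against 3.56% of all genes tested. Other tests gave other counts. DESeq2 (Wald test) called 7 of the 8 (background 1.29%) and edgeR's exact test called 7 (background 0.933%), in each case all but Clec1b. A newer form of the quasi-likelihood dispersion called 3, Mrc1, Clec4g and Stab1 (background 0.448%). Without the filter on low counts 1 of 10 passed, Mrc1 (background 0.0362%), and Mrc1 alone also passed without the non-LRC library of JV602 (background 0.0425%). Mrc1, Clec4g and Fcgr2b are in a list of differing genes that the study chose on these same libraries, so their direction is not independent evidence.

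**Figure D1:**
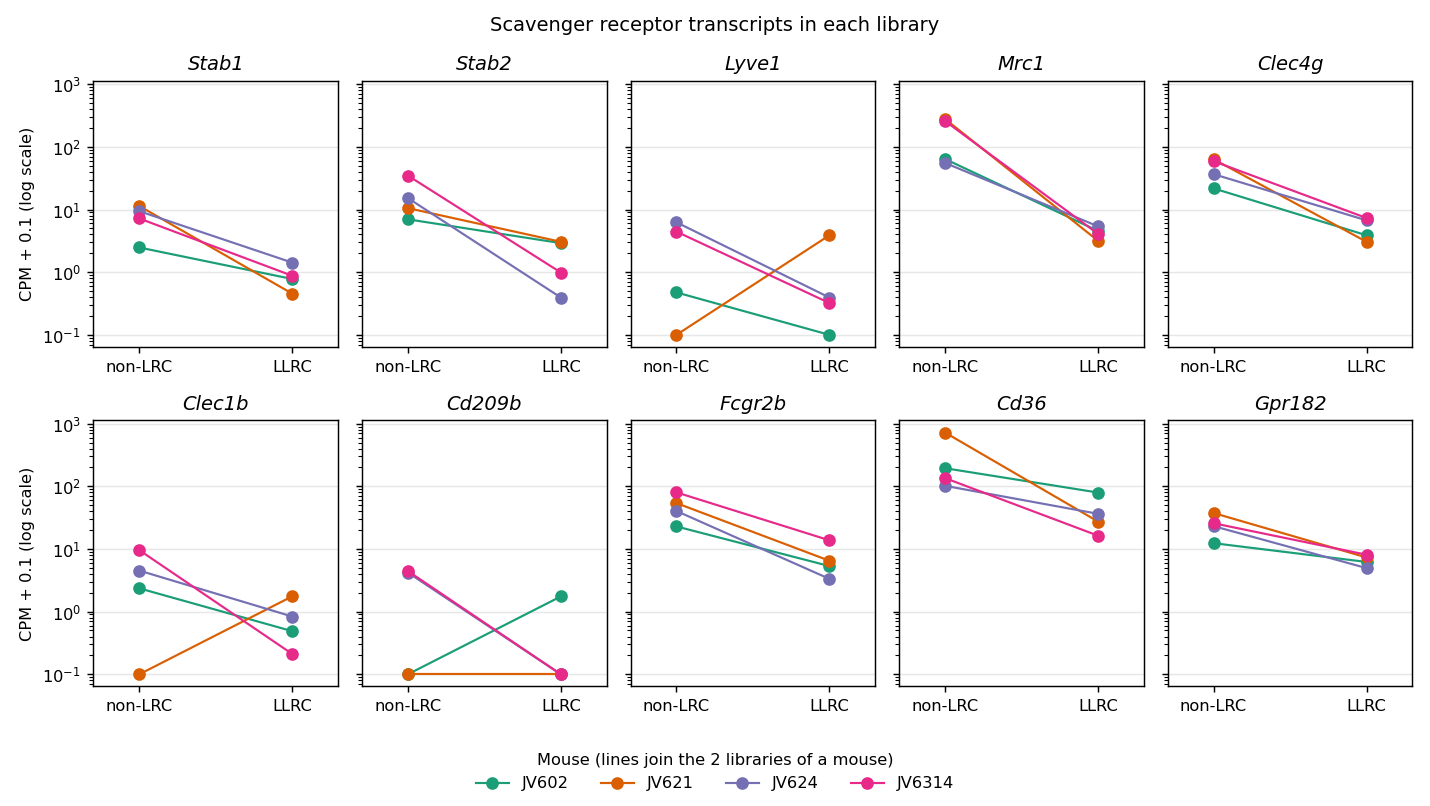
Each panel plots a receptor in the 8 libraries as CPM plus 0.1 on a log axis, with a line joining the non-LRC and LLRC libraries of a mouse. The lines of Stab1, Stab2, Mrc1, Clec4g, Fcgr2b, Cd36 and Gpr182 slope down in all 4 mice, while those of Lyve1 and Clec1b rise in JV621 and that of Cd209b rises in JV602.

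The stabilins were read at low levels in both groups and were lower in LLRCs. Stab1 (ENSMUSG00000042286, chr14:31139013-31168641 of GRCm38, minus strand) encodes a large transmembrane receptor that takes up modified low-density lipoprotein and SPARC and sorts cargo to lysosomes. LLRCs held 7, 3, 9 and 7 counts of it, and non-LRC cells of the same mice 19, 54, 59 and 36. The groups did not overlap, and the non-LRC library of JV602, at 2.38 CPM, was the lowest of its group. Its LLRC mean was 0.784 ± 0.403 CPM against 7.52 ± 3.83 CPM (SD, n = 4). The log2FC was -3.24 (SE 0.69, edgeR quasi-likelihood adjusted p = 0.182). An exact permutation test of its log2 level, two-sided, gave p = 0.029, the smallest that 4 libraries against 4 allow. This test and those below exchange all 8 libraries. Exchanging only within the 4 mice allows 16 arrangements and no two-sided p under 0.125, so a paired exact test could not pass 0.05 for any receptor.

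Stab2 (ENSMUSG00000035459, chr10:86841198-87008025, minus strand) encodes the main clearance receptor for hyaluronan and chondroitin sulfate in the liver. LLRCs held 29, 25, 2 and 8 counts of it, against 55, 50, 96 and 176 in their EGFP- counterparts. The difference was uneven, since the LLRC level was 40.8% of the non-LRC level in JV602 and 28.3% in JV621, but 2.56% in JV6314. In JV624 the 2 LLRC counts were fewer than the 3 that a count of 0 allows, so no share is given. Means were 1.74 ± 1.35 CPM for LLRCs against 16.8 ± 12.4 CPM (SD, n = 4). The log2FC was -3.25 (SE 0.83, edgeR quasi-likelihood adjusted p = 0.358, exact permutation p = 0.029). Without the library of JV6314 the non-LRC mean was 10.8 CPM. Exon bases shared with other genes are few for both stabilins, 1.09% for Stab1 (with Nt5dc2) and 1.61% for Stab2 (with the antisense gene Gm16268), and counting without strand cannot divide reads there.

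Lyve1 (ENSMUSG00000030787, chr7:110850607-110863239, minus strand) encodes a hyaluronan receptor of lymphatic vessels and of sinusoids. LLRCs held 0, 32, 2 and 2 counts of it and non-LRC cells 3, 0, 39 and 22. Its direction was not the same in all mice. The LLRC library of JV621 held 32 counts where the non-LRC library of that mouse held 0, and the other 3 mice had more in non-LRC cells. The means of 1.08 ± 1.81 and 2.72 ± 3.02 CPM (SD, n = 4) were within the spread of the libraries (exact permutation test, two-sided, p = 0.400), and rested on single libraries. The LLRC mean was 0.172 CPM without JV621, and the non-LRC mean was 1.57 CPM without JV624.

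Among the C-type lectins, Mrc1 showed the largest difference of the 10. Mrc1 (ENSMUSG00000026712, chr2:14229392-14332057, plus strand) encodes the mannose receptor, which binds mannose-ended glycoproteins and, through another domain, collagen. LLRCs held 46, 26, 36 and 36 counts of it, far fewer than the 511, 1336, 351 and 1311 of non-LRC cells. The 4 LLRC libraries lay close together, between 3.08 and 5.29 CPM, whereas the non-LRC libraries formed a lower pair, JV624 and JV602 at 55.4 and 64.0 CPM, and a higher pair, JV6314 and JV621 at 259 and 279 CPM. The LLRC level was thus 6.97%, 1.10%, 9.56% and 1.55% of the non-LRC level. The means of Mrc1 were 4.21 ± 0.926 and 164 ± 121 CPM (SD, n = 4), and its log2FC was -5.28 (SE 0.66, edgeR quasi-likelihood adjusted p = 0.0809, exact permutation p = 0.029). Over 22 other settings the log2FC stayed between -5.70 and -4.45. No exon base of Mrc1 is shared with another gene, and none of its stretches of 50 bases occurs in the transcripts of another gene.

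Clec4g (ENSMUSG00000074491, chr8:3707064-3720651, minus strand) encodes LSECtin, a lectin of sinusoidal endothelium that binds N-acetylglucosamine-ended glycans. Its counts were 39, 25, 45 and 65 for LLRCs against 173, 304, 232 and 299. The groups did not overlap, with the highest LLRC library at 7.22 CPM and the lowest non-LRC library, that of JV602, at 21.7 CPM. The means of Clec4g were 5.14 ± 2.09 CPM for LLRCs against 45.2 ± 19.6 CPM (SD, n = 4). The log2FC was -3.13 (SE 0.50, edgeR quasi-likelihood adjusted p = 0.0932, exact permutation p = 0.029). Its exons share 5.93% of their bases with Gm16553 on the opposite strand.

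Clec1b and Cd209b were sparse. Clec1b (ENSMUSG00000030159, chr6:129397297-129409335, plus strand), a receptor for podoplanin that is best known on platelets, was at 4, 14, 5 and 1 counts among LLRCs, against 18, 0, 28 and 48. It was lower in the LLRC library of 3 mice and higher in that of JV621. Its means of 0.722 ± 0.673 and 4.04 ± 4.05 CPM (SD, n = 4) came from groups that overlapped (log2FC -2.46, SE 1.23, edgeR quasi-likelihood adjusted p = 0.9999, exact permutation p = 0.229), and the means were 0.411 CPM for LLRCs without JV621 and 2.22 CPM for non-LRC cells without JV6314. The gene shares 3.61% of its exon bases with Clec9a on the same strand. Cd209b (ENSMUSG00000065987, chr8:3917655-3926844, minus strand), a mouse relative of DC-SIGN that binds microbial sugars, was read in 3 libraries only. LLRCs held 17, 0, 0 and 0 counts of it and non-LRC cells 0, 0, 26 and 22 (exact permutation test, two-sided, p = 0.429), so JV624 and JV6314 had it in non-LRC cells, JV602 in LLRCs, and JV621 in neither.

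Fcgr2b (ENSMUSG00000026656, chr1:170958617-170976547, minus strand) encodes the inhibitory Fc gamma receptor, which on sinusoidal endothelium takes up small immune complexes. LLRC libraries held 54, 54, 22 and 123 counts of it, against 182, 258, 255 and 405. JV6314 was the highest mouse in each group, at 13.7 and 79.9 CPM, and the groups did not overlap. Its means, 7.13 ± 4.54 and 49.2 ± 24.1 CPM (SD, n = 4), lay further apart than either SD (log2FC -2.78, SE 0.57, edgeR quasi-likelihood adjusted p = 0.158, exact permutation p = 0.029). Of its stretches of 50 bases, 6.95% also occur in other genes and 2.92% in Fcgr3, the most among the 10 receptors, so a small part of its reads may be split between these genes or left out of the counts.

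Cd36 was the most abundant of the 10. It (ENSMUSG00000002944, chr5:17781690-17888801, minus strand) encodes a class B scavenger receptor for oxidised lipoproteins and long-chain fatty acids, and is also expressed in capillary endothelium of other organs. Its counts were 820, 231, 247 and 146 for LLRCs against 1553, 3456, 645 and 685. The non-LRC library of JV621, at 722 CPM, stood far above the other 3, which lay between 102 and 194 CPM, while the LLRC library of JV602, at 79.5 CPM, came nearest to them. Means were 39.8 ± 27.7 and 288 ± 291 CPM (SD, n = 4). The log2FC was -2.85 (SE 0.74, edgeR quasi-likelihood adjusted p = 0.369, exact permutation p = 0.029). Without that library of JV621 the non-LRC mean was 144 CPM and the log2FC -1.84.

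Gpr182 (ENSMUSG00000058396, chr10:127747276-127751732, minus strand), a seven-helix receptor of sinusoidal and lymphatic endothelium that binds and clears chemokines, had the smallest fold of the 7 receptors whose groups did not overlap. LLRCs held 63, 61, 33 and 72 counts of it against 98, 179, 146 and 130. Its LLRC libraries were even, from 4.85 to 7.99 CPM, and its non-LRC libraries ranged from 12.3 CPM in JV602 to 37.4 CPM in JV621. Means were 6.54 ± 1.37 and 24.6 ± 10.3 CPM (SD, n = 4). The log2FC was -1.91 (SE 0.44, edgeR quasi-likelihood adjusted p = 0.251, exact permutation p = 0.029). Within mice the LLRC level was 49.8%, 19.3%, 21.1% and 31.2% of the non-LRC level.

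The difference varied between mice. In JV602 9 of the 10 receptors were lower in LLRCs and Cd209b was higher. In JV621 7 were lower, Lyve1 and Clec1b were higher, and Cd209b was at 0 in both libraries. In JV624 and in JV6314 all 10 were lower. The median log2 ratio of LLRC over non-LRC, with a prior count of 0.5, was -1.93, -2.72, -3.06 and -3.56 over all 10, where the value of JV621 includes Cd209b at 0 counts in both libraries, a ratio set by depth and the prior count. Over the 8 receptors tested it was -1.93, -3.73, -2.61 and -3.08, so that the order of the mice depended on the sparse genes, and JV602 had the smallest difference in both sets. The summed level of the 10 receptors was 105, 55.7, 59.0 and 51.1 CPM for LLRCs against 327, 1177, 296 and 618 CPM. The sum in JV621 was carried by Cd36 and Mrc1. That library held 0 counts of Lyve1, Clec1b and Cd209b, which allows up to 0.626 CPM each, and yet was the highest of its group for 5 receptors, Stab1, Mrc1, Clec4g, Cd36 and Gpr182. With the mouse as a block in the same edgeR test, the adjusted p of the 8 receptors tested lay between 0.248 and 1.00.

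**Figure D2:**
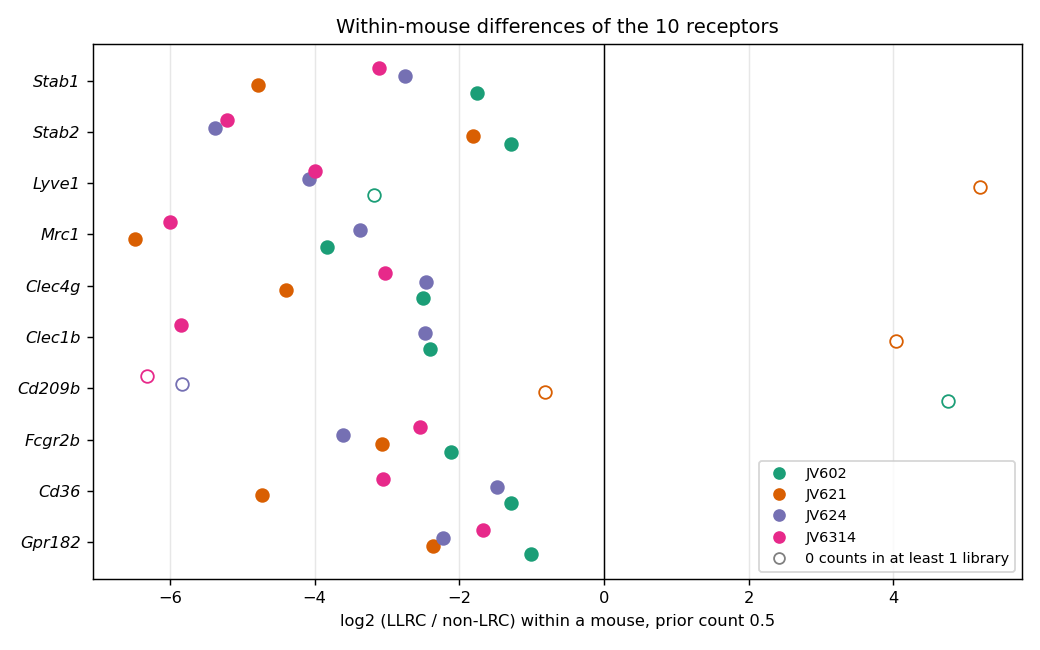
The log2 ratio of LLRC over non-LRC within each mouse, with a prior count of 0.5, is plotted for each receptor, and open circles mark ratios with 0 counts in at least 1 library. All points of the 7 receptors that did not overlap lie left of 0, and the 3 points right of 0 are Lyve1 and Clec1b in JV621 and Cd209b in JV602.

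To set the receptors beside each other, CPM was divided by the length of the union of the exons. In non-LRC cells Cd36 led with 80.3 CPM per kb, followed by Mrc1 with 25.8, Clec4g with 18.4, Fcgr2b with 8.50 and Gpr182 with 6.22 CPM per kb. The other 5 stood between 0.731 CPM per kb for Stab1 and 1.92 CPM per kb for Stab2. The ranges of all neighbours in this order overlapped over the 4 libraries. Clec4g was above Fcgr2b, and Gpr182 above Stab2, within each of the 4 mice, whereas Cd36 was above Mrc1 in 3, with Mrc1 the highest of the 10 in JV6314. Cd36 made up 66.4%, 68.9%, 39.2% and 28.4% of the summed CPM per kb of the receptors in the non-LRC libraries. In LLRCs the order differed, and Mrc1, at a mean of 0.660 CPM per kb, stood below Clec4g with 2.09, Gpr182 with 1.65 and Fcgr2b with 1.23 CPM per kb.

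**Figure D3:**
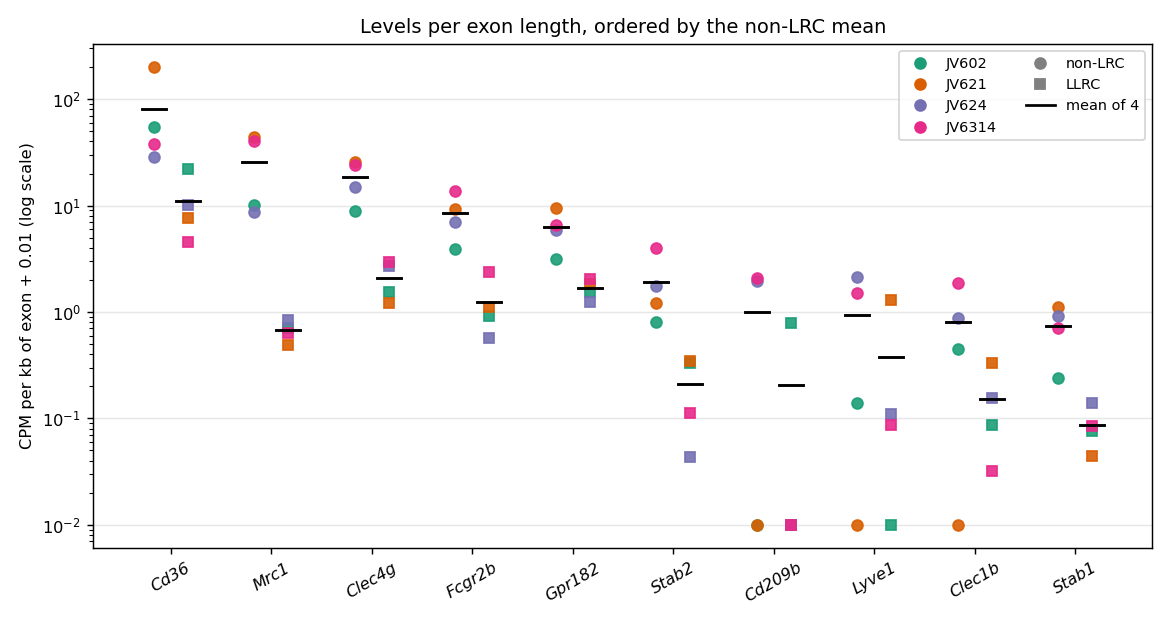
The level of each receptor per kb of exon, plus 0.01 and on a log axis, is plotted in the non-LRC (circles) and LLRC libraries (squares), with the mean of 4 as a bar and the genes ordered by their non-LRC mean. Cd36 is at the top in both groups, and Mrc1 has a mean of 25.8 CPM per kb in non-LRC cells and 0.660 in LLRCs.

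The sequence before the transcription start is shown for the receptors that the newer dispersion also called, 1 window of 250 bases each, from RefSeq on GRCm38.p6 and written 5′ to 3′ on the strand of the gene. Capitals mark the letters AGGAAG on either strand, the core of a motif that ETS factors of endothelium bind, and TGCTGA, part of the site that MAF factors bind. The letters of these motifs did not overlap those of another motif searched. The windows are chr2:14229164-14229413 for Mrc1, whose last bases lie in the transcript of the gene annotation, chr8:3720652-3720901 for Clec4g and chr14:31168642-31168891 for Stab1.
Mrc1: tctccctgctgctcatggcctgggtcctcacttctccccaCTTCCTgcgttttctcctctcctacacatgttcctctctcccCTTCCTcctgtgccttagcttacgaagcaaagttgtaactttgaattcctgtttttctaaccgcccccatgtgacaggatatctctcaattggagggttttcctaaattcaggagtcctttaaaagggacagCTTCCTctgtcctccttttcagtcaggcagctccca
Clec4g: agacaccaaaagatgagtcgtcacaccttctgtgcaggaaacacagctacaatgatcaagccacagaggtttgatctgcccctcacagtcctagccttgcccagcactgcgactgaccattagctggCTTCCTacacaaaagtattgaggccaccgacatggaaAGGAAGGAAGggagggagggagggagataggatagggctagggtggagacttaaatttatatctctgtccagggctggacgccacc
Stab1: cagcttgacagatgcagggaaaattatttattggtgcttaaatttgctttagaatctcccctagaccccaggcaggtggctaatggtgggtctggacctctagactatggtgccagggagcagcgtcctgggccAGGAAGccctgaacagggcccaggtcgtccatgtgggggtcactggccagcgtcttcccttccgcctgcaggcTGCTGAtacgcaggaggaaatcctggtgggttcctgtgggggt
The window of Mrc1 holds AGGAAG 3 times on the opposite strand, and its nearest match begins 36 bases before the start. Clec4g has the same letters 3 times, of which the 2 on the gene's own strand overlap each other, and Stab1 has them once, beside 1 match to TGCTGA that begins 43 bases before the start. RefSeq windows were matched for 8 of the 10 receptors, not for Lyve1 and Gpr182. AGGAAG was found in 5 of the 8 and in 29.5% of 32851 promoters of the same length. TGCTGA was found in 2 of 8 (16.1% of all promoters), ACAAAG, a core that SOX factors bind, in 2 of 8 (16.5%), and AGATAA, which GATA factors bind, in 0 of 8 (9.99%). These matches describe letters and are not binding sites.

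Levels of other receptors and of the uptake machinery were read from lists of related genes. Of 20 other scavenger and endocytic receptors, 13 were tested, 0 had an adjusted p below 0.05, and 2 had an unadjusted p below 0.05, both lower in LLRCs. Msr1, the class A scavenger receptor of macrophages and sinusoidal cells, was at 23, 10, 5 and 6 counts among LLRCs, against 106, 187, 136 and 140 (log2FC -4.36, SE 0.60, edgeR quasi-likelihood adjusted p = 0.0809). Asgr1, a subunit of the asialoglycoprotein receptor of hepatocytes, was at -2.48 (SE 0.95, edgeR quasi-likelihood adjusted p = 0.841) with groups that overlapped. The median over the 13 was -0.56.

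Among 5 genes of the Fc gamma receptor family and its partners, 3 were tested, 2 of them at an unadjusted p below 0.05 and 0 past the adjusted threshold. Fcer1g, the signalling chain of activating Fc receptors, had a log2 fold change of -3.89 and Fcgr3 of -3.81, each with groups that did not overlap, whereas Fcgrt, the neonatal Fc receptor, stood at -0.27 with overlapping groups. Of 10 relatives of Cd209b and Clec4g only Clec14a, also used as a pan-endothelial marker, had an unadjusted p below 0.05 among the 3 tested, at -3.85, and 3 Cd209 genes had 0 counts in every library. Of 10 genes of hyaluronan handling, 5 were tested with a median of -0.15, whose sign was not stable (0.77 with the mouse as a block, 0.37 in limma with quality weights and 0.15 without the libraries of JV6314), and Cemip2, a cell surface hyaluronidase, had an unadjusted p below 0.05 at -1.36. Cd44, another hyaluronan receptor, was at 0.43 (SE 1.02), and its count was 0 in the non-LRC library of JV621.

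Genes of the general machinery of endocytosis and lysosomes mostly lay near 0. Of its 18 genes 17 were tested, with a median log2 fold change of -0.14, and 2 had an unadjusted p below 0.05. Those were Ehd3, an endosomal ATPase that is enriched in endothelium of liver and kidney (log2FC -3.78, SE 0.57, edgeR quasi-likelihood adjusted p = 0.0809), and Dab2, a clathrin adaptor that serves scavenger receptors (log2FC -1.35, SE 0.44, edgeR quasi-likelihood adjusted p = 0.680). Ehd3 had 126 to 167 counts in the LLRC libraries and 620 to 2389 counts in the non-LRC libraries. The other genes of this list, such as clathrin, Rab and cathepsin genes, had unadjusted p above 0.05.

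Most other endothelial genes of the lists were lower in LLRCs, as the receptors were. For the counts below, 3.56% of all genes tested were lower in LLRCs at an unadjusted p below 0.05. All 18 other sinusoidal endothelial genes passed the filter and had a negative log2 fold change, 15 of them with an unadjusted p below 0.05 and 0 with an adjusted p below 0.05, at a median of -3.21. Kdr, the main receptor for VEGF, was at -3.78, Oit3 at -3.50, Wnt2 at -4.18 and the nuclease Dnase1l3 at -3.30. Of 15 pan-endothelial markers 12 were tested and 10 had an unadjusted p below 0.05, with a median of -3.62. The smallest p belonged to the angiopoietin receptor Tek (-3.69), Flt1 (-3.97), Egfl7 (-2.42) and Clec14a (-3.85). Of 10 markers of continuous vessels, which sinusoids largely lack, 9 had a negative log2FC and 7 an unadjusted p below 0.05. Among these were Cldn5 at -3.73, Gja4 at -7.87, Vwf at -4.66 and, with overlapping groups, Cd34 at -2.23. Efnb2 was higher in LLRCs at 1.34 (SE 1.17), also with overlapping groups. The median of the list was -3.82, and it was -3.10 without the non-LRC library of JV621 and -4.57 without the libraries of JV602. The list that the study chose on these libraries holds 6 of the sinusoidal, 8 of the pan-endothelial and 3 of the continuous vessel genes, so these counts are not independent evidence of direction. The summed level of the 15 pan-endothelial markers was 50.3 to 96.2 CPM in LLRCs and 253 to 1202 CPM in non-LRC cells. Among non-LRC libraries this sum and that of the receptors were both highest in JV621. Among LLRC libraries it was highest in JV624 and lowest in JV602, where the sum of the receptors was highest.

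**Figure D4:**
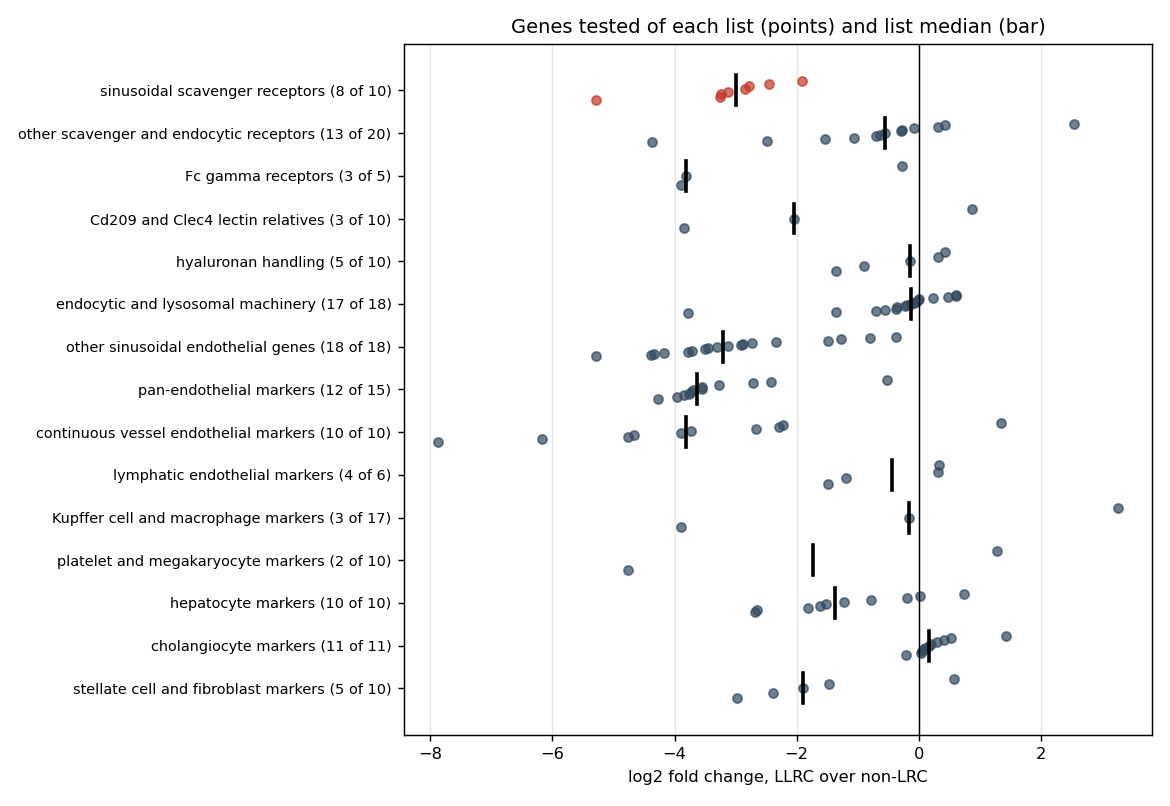
Each point is the log2 fold change of LLRC over non-LRC of a tested gene, by list, and the bar is the list's median, with the number tested of all genes of the list in brackets. The 8 scavenger receptors have a median of -2.99, near the other sinusoidal (-3.21) and pan-endothelial genes (-3.62), and the endocytic machinery (-0.14) and cholangiocyte markers (0.17) lie near 0.

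For each receptor, log2 CPM minus the mean log2 CPM of the 15 pan-endothelial markers in the same library was compared between groups. Gpr182 stood higher relative to these markers in LLRCs, at 2.49, 1.72, 1.33 and 2.67 for LLRCs against 0.78, 0.75, 0.07 and 0.49. The groups did not overlap, and the difference was 1.53 on the log2 scale (SE 0.36, higher in 4 of 4 mice, exact permutation test, two-sided, unadjusted p = 0.029 among 10 tests). As for the levels themselves, exchanging labels within mice could give no p below 0.125. The level of Gpr182 itself was lower in LLRCs (log2FC -1.91), but by less than the mean of the 15 endothelial markers. Not every marker fell further, as Ecscr was at -0.52 with overlapping groups. Tal1 had 0 counts in all LLRC libraries, and Tie1, Erg, Sox18 and Robo4 in some, so the mean of the markers there rests in part on the prior count. Against the 7 markers outside the study's own list, the difference of Gpr182 was 1.11 with p = 0.086 in the same exact permutation test. Mrc1 went the other way, at -1.57 (SE 0.66, lower in 3 of 4 mice, exact permutation p = 0.114), with overlap through JV624. For Stab1, Stab2, Fcgr2b, Clec4g and Cd36 the differences lay between -0.07 and 0.71, with exact permutation p from 0.457 to 1.00 and SEs from 0.48 to 0.92, so that differences of that order could not be detected with 4 libraries a group. Values of Lyve1, Clec1b and Cd209b rest on libraries with 0 counts and their differences had SEs of 1.64 to 2.02.

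**Figure D5:**
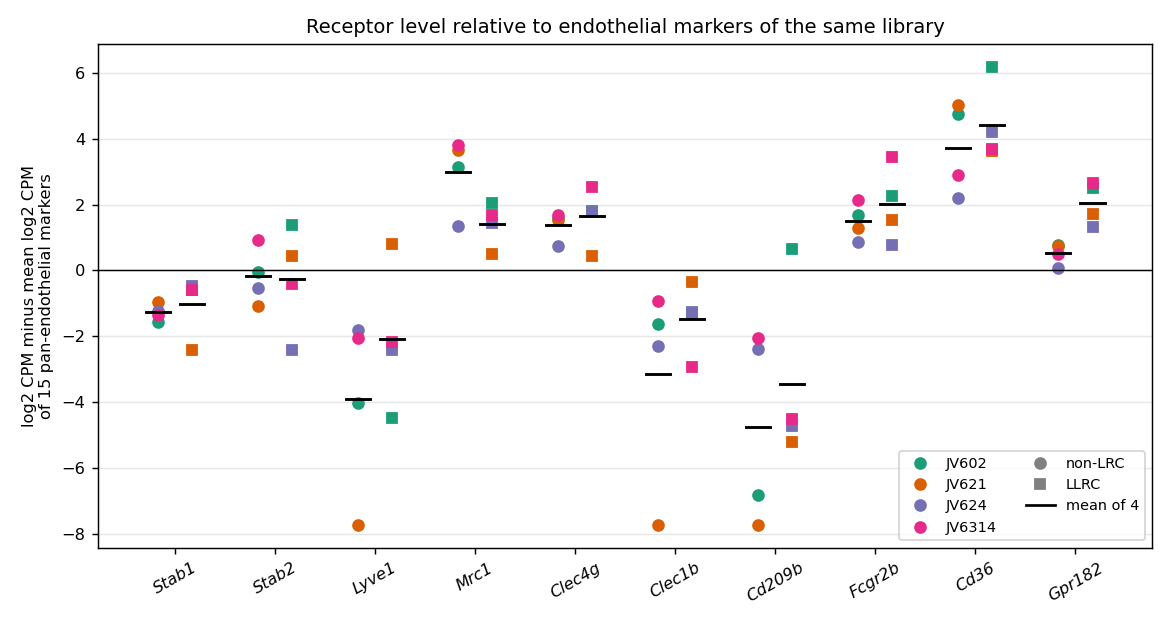
The log2 level of each receptor minus the mean log2 level of 15 pan-endothelial markers of the same library is plotted for non-LRC (circles) and LLRC libraries (squares), with bars at the means of 4. The LLRC squares of Gpr182 (1.33 to 2.67) lie above its non-LRC circles (0.07 to 0.78), and the points of the other 9 receptors overlap.

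Markers of the other cells that use these receptors were read in the same libraries. Of 17 Kupffer cell and macrophage markers 3 passed the filter, and 1 was lower and 1 higher in LLRCs at an unadjusted p below 0.05, Fcer1g (-3.89) and Ptprc (3.27), the gene of CD45. The median log2FC of this list was -0.16 over those 3, but -4.13 over 9 genes with a filter of 1 CPM in 2 libraries and -3.98 over 16 genes with no filter, since most of its genes were sparse and lower in LLRCs. The summed level of the 17 was 12.6 to 32.7 CPM in LLRCs and 26.7 to 58.7 CPM in non-LRC cells. The defining markers Adgre1, Clec4f and C1qa had 0 counts in all LLRC libraries and in the non-LRC libraries of JV602 and JV621, and 39 and 8, 12 and 10, and 4 and 8 counts in those of JV624 and JV6314. Mrc1 stood at 64.0 and 279 CPM in the non-LRC libraries of JV602 and JV621, against 4.46 and 3.08 CPM in the LLRC libraries of these mice. Other markers of the list were read in these libraries. Fcer1g had 15 and 20 counts, Lyz2 5 and 3, Tyrobp 2 and 6 and Csf1r 215 and 77 in the non-LRC libraries of JV602 and JV621, which also held 10 counts of Cd68 and 4 of C1qb (JV602) and 22 of Timd4 (JV621). Lyz2, like Fcer1g, had groups that did not overlap, with 2 counts or fewer in each LLRC library, whereas Csf1r was at -0.16 with overlapping groups. The methods deplete CD45+ cells and sort CD45- cells. Ptprc had 5, 34, 14 and 59 counts among LLRCs and 0, 0, 0 and 7 among non-LRC cells. Cd5l of the same list had 0, 0, 1 and 0 counts among LLRCs and 0, 0, 60 and 23 among non-LRC cells. Msr1, used by macrophages and sinusoidal cells, had 23, 10, 5 and 6 counts among LLRCs and 106, 187, 136 and 140 among non-LRC cells. The part of macrophages in the level of Mrc1 was not tested. Lyve1, Cd209b and Clec1b had their highest non-LRC counts in JV624 and JV6314, where the sums of the hepatocyte markers were also the highest of the non-LRC libraries, at 6414 and 4887 CPM, and the part of either cell type in these counts was not tested.

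B cell markers were nearly absent, with a summed level of 7 genes of 0 to 0.0969 CPM in LLRCs and 0 to 2.76 CPM in non-LRC cells, and Cd79a, Cd22 and Blk at 0 in every library. Platelet and megakaryocyte markers summed to 2.04 to 7.65 CPM in LLRCs and 8.02 to 56.6 CPM in non-LRC cells, the highest of these in JV621 with 267 counts of Selp (-4.75), also an endothelial gene. The other genes of the list were sparse. Pf4 had an LLRC mean of 1.87 CPM against 1.56 CPM, Itga2b was at 1.28 (SE 0.93), and Ppbp and Treml1 had 0 counts in every library. Of 6 lymphatic endothelial markers Flt4 alone had an unadjusted p below 0.05 (-1.48), and Ccl21a and Mmrn1 were at 0 in every library. The LLRC library of JV621, with 32 counts of Lyve1, held 2568 counts of Prox1, 1863 of Reln, 119 of Pdpn and 46 of Flt4, and Prox1 and Reln, which are also expressed outside lymphatic vessels, were read at 520 counts or more in every library. Of 10 hepatocyte markers, all tested, 8 had a negative log2FC, with a median of -1.37 (-0.67 without the non-LRC library of JV624). At an unadjusted p below 0.05, 5 were lower in LLRCs. Those with the smallest p were Cyp2e1 (-2.69), Tat (-1.62), Apoa1 (-2.66) and Cps1 (-1.81), all with groups that overlapped. Within mice the median log2 ratio of the hepatocyte markers was -0.12, 0.17, -2.11 and -1.42. It was -1.93, -2.72, -3.06 and -3.56 over all 10 receptors and -1.93, -3.73, -2.61 and -3.08 over the 8 tested. The sum of the hepatocyte markers came to 2934 to 3285 CPM in LLRCs and 2146 to 6414 CPM in non-LRC cells, lowest in the non-LRC library of JV621 and highest in that of JV624. Alb (log2FC 0.01) was the largest part of it, with 17565 of 40633 counts in the non-LRC library of JV624. Of 10 stellate cell and fibroblast markers 2 of 5 tested had an unadjusted p below 0.05, Lrat (-2.98) and Dcn (-1.90). The log2FC was negative for 4 of the 5, with a median of -1.90. Rgs5, the most abundant of the list, went the other way at 0.57 (SE 0.48), with overlapping groups. Its LLRC mean was 6211 CPM, and its non-LRC mean 4177 CPM. The summed list, most of it Rgs5, averaged 6602 CPM over the LLRC libraries, above the 5683 CPM of the non-LRC libraries. The 11 cholangiocyte markers, which check the labelled cell type, were read in every library. Spp1 stood far above the others, at a mean of 168381 CPM for LLRCs against 116556 CPM, and the means of Epcam were 583 and 551 CPM, of Krt19 116 and 134 CPM and of Sox9 368 and 278 CPM. The median of the list was 0.17, and Cftr (1.43) alone had an unadjusted p below 0.05. The parts of these cells in the receptor levels were not tested.

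The tested genes whose pattern over the 8 libraries was most like the mean log2 level of the 10 receptors were Mgp, Slc43a3, Mrpl20, Ltbp4, Lrat, Fcer1g, Hsd11b1, Emcn, Tmem204 and Lrrc32. Pearson's r ran from 0.946 for Lrrc32 to 0.970 for Mgp, a description over 8 libraries that share the difference between groups. Emcn encodes the endothelial sialomucin endomucin, Mgp a matrix protein that inhibits calcification, and Lrat the retinol esterifying enzyme of stellate cells. Of the 10 genes 6 are in the list that the study chose on these libraries.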

How the data were processed

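RNA-seq was measured in 8 libraries, an LLRC and a non-LRC library from each of 4 mice named by the labels. The authors had the reads mapped by a service (aligner not given in the sources used here) and counted them with HTSeq (union mode, unstranded) over Ensembl exons of GRCm38.p4. The authors deposited these counts, whole numbers for each gene, with no normalization. The authors' table from edgeR 3.2.4, with log2 fold changes, average log abundance, p-values and adjusted p-values, was not used.

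From the counts, 13605 of 46603 rows passed filterByExpr, library sizes were scaled by TMM (factors 0.816 to 1.23), and the group was tested with edgeR 4.0.16's quasi-likelihood test in R 4.3.3, with Benjamini-Hochberg adjustment over all genes tested and a threshold of 0.05. DESeq2 1.42.0 and limma 3.58.1 were alternatives, as were other filters and normalizations, a block for the mouse and leaving out single libraries. Exact permutation tests, two-sided, used log2 (CPM + 0.5) for the levels of a gene. For levels relative to endothelial markers they used log2 CPM with a prior count of 0.5. The libraries of a mouse come from the same animal and are paired. The correlation of their deviations across genes was 0.096 in JV602, 0.074 in JV621, 0.003 in JV624 and 0.171 in JV6314. Names, loci and exon lengths are from GENCODE for GRCm38, matched for 46005 rows. The scripts were tested on simulated data.

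The 10 receptors and the gene lists were chosen with earlier results of these data known. All 10 receptors are named. Of each other list those with an unadjusted p below 0.05 are named, at most 4 with the smallest p, with genes at 0 where a cell type was checked, and the 10 genes most like the receptors by Pearson's r. Other genes, such as Cd44, Fcgrt, Timd4, Lyz2, Prox1 and Pf4, were named after their values were seen.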

Additional observations from a re-analysis of the deposited data

Results flagged for a closer look

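Among the 20 groups of 4 libraries, 3 held a library far from the other 3 by Dixon's test, where chance marks about 1 in 20 groups of evenly spread values. That rate does not hold for groups that are mostly 0 counts. Lyve1 stood at 3.78 CPM (32 counts) in the LLRC library of JV621, while the other LLRC libraries lay between 0 and 0.294 CPM. Cd36 stood at 722 CPM in the non-LRC library of JV621, while the other non-LRC libraries lay between 102 and 194 CPM. Cd209b stood at 1.65 CPM (17 counts) in the LLRC library of JV602, and the other LLRC libraries held 0 counts, so that any count above 0 would have been marked. The LLRC libraries of JV621 and JV602 were thus the exceptions for Lyve1 and Cd209b, receptors that were higher in non-LRC cells in JV624 and JV6314.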

How the results depend on the processing

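The log2 fold changes of the tested receptors stayed negative under every one of the 22 alternatives that tested them, and their median lay between -3.25 and -2.67. What changed was the number of calls. edgeR's quasi-likelihood test called 0 genes and 0 receptors, with 702 genes at an unadjusted p below 0.05. Without the expression filter it called 11 genes and 1 receptor. DESeq2's Wald test called 221 genes and 7 receptors, edgeR's exact test 159 genes and 7 receptors, and the newer dispersion 73 genes and 3 receptors. The cause of these differences was not tested. With a single library left out the test called between 0 and 6 genes and between 0 and 1 receptors, the 6 genes without the non-LRC library of JV602. With the mouse as a replicate block it called 0 genes and 0 receptors, with 569 genes at an unadjusted p below 0.05, and the median of the receptors was -2.96. As the test without the block also made 0 calls, this says nothing on whether calls hold, and the tests that made calls were not refitted with the block. Medians of gene lists moved by more than the spread between mice in 20 of 308 comparisons with an alternative. Depth limits Lyve1, Clec1b and Cd209b, at up to 48 counts in a library, where a count of 0 allows up to 0.626 CPM.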

Other observations

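Among the other sinusoidal endothelial genes, the ligands and factors that pattern the lobule were picked out after their values were seen. Counts are given for JV602, JV621, JV624 and JV6314 in this order. Rspo3, a signal of the endothelium around the central vein, was at 0, 164, 14 and 40 for LLRCs against 615, 2356, 1177 and 1322 for non-LRC cells. Wnt9b, from the same vessel, was at 0, 5, 0 and 0 against 13, 13, 41 and 12. For both genes, as for Lyve1 and Clec1b, JV621 had the highest count among the LLRC libraries. Gata4, a factor of sinusoidal identity, was at 0, 3, 5 and 1 against 18, 22, 54 and 51 (log2FC -4.39, SE 1.04, edgeR quasi-likelihood adjusted p = 0.276). Maf, which sinusoidal endothelium shares with other cells, had a log2FC nearer to 0 (-1.27, SE 0.37, edgeR quasi-likelihood adjusted p = 0.536), with groups that did not overlap.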
